A study of Homo sapiens with 66 samples.

Results

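Nonsense-mediated decay (NMD) is the surveillance pathway that removes mRNAs on which ribosomes stop too early. The 9 genes described here encode its core factors, UPF1, UPF2, UPF3A, UPF3B, SMG1, SMG5, SMG6, SMG8 and SMG9. They were chosen by name, with earlier results of these data known, and were found by Ensembl identifier among the 20167 genes of the count table. UPF1 is the RNA helicase at the centre of the pathway, UPF2 bridges it to UPF3A or UPF3B, and the UPF3 proteins contact the exon junction complex left on spliced mRNA. SMG1 is the kinase that phosphorylates UPF1, with SMG8 and SMG9 as its bound subunits. Phosphorylated UPF1 attracts SMG6, the endonuclease that cuts the mRNA, and SMG5, which helps to bring in decapping and deadenylation enzymes. Decay depends on translation, and the mRNAs of several factors (UPF1, UPF2, UPF3B, SMG1, SMG5 and SMG6) are known as NMD substrates themselves, so that their levels are under feedback.

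The study treated human myeloma cell lines with inhibitors of prolyl-tRNA synthetase (ProRS), the enzyme that charges proline onto its tRNA. AMO1 cells received DMSO, NCP26, NCP22, halofuginone (HFG), halofuginol or the proteasome inhibitor carfilzomib (CFZ) for 6 h or 24 h, giving 12 groups and 36 libraries. L363-CFZr cells, an L363 subline made resistant to CFZ, received the same agents except CFZ, giving 10 groups and 30 libraries. NCP26, NCP22, HFG and halofuginol were used at 1 µM. The labels give no dose for CFZ, and a figure legend of the study gives 10 nM for AMO1 cells. Each group had 3 libraries of polyadenylated RNA. The study's methods speak of biological triplicates as the default and the labels only of triplicates, so the p-values measure the spread between these samples. RNAseq levels are given as CPM, the counts of a gene scaled to a common library total with TMM factors over all 66 libraries, and fold changes come from edgeR quasi-likelihood fits of the groups compared, so that ratios of printed CPM differ slightly from the fitted values. In the text ± is the SE of a log2 fold change or the SD of a level over 3 libraries, and a gene is called at an adjusted p under 0.05.

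Library totals ran from 1666325 to 6596543 counts (median 3165566), and the 9 factors had from 24 (SMG6) to 1806 counts (SMG5) in a library. All 9 passed the filter on low counts in all 43 comparisons. The column names hold sample numbers in 3 sets of 22 libraries. All AMO1 6 h libraries, AMO1 DMSO at 24 h and replicate 1 of CFZ at 24 h lay in the first set, and the other AMO1 24 h libraries in the second. In L363-CFZr cells the 6 h DMSO and NCP26 libraries and NCP22 replicates 1 and 2 lay in the second set, and NCP22 replicate 3, the HFG and halofuginol libraries and all 24 h libraries in the third. For the AMO1 24 h treatments other than CFZ against DMSO, and for HFG and halofuginol at 6 h in L363-CFZr cells, set and treatment therefore cannot be told apart in the fits of 2 groups. Nor can line and set for DMSO, since the AMO1 DMSO libraries lay in the first set and those of L363-CFZr cells in the second at 6 h and the third at 24 h. The same limit holds for time and set in L363-CFZr DMSO, and for compound and set in NCP26 against HFG at 6 h in that line. Replicate 2 of DMSO at 24 h in L363-CFZr cells and replicate 2 of CFZ at 24 h in AMO1 cells stood furthest from their partners. At 6 h replicate 2 of NCP26 in L363-CFZr cells and, less so, replicate 1 of NCP26 in AMO1 cells also stood apart. Where leaving out one of them moved a call, values are given with and without it. All 9 plasma cell markers examined were above 1 CPM in both lines (summed level 2975 to 5975 CPM in AMO1 and 2483 to 3947 CPM in L363-CFZr), whereas the B cell, myeloid and erythroid markers averaged under 1 CPM each. Of the T cell, stromal and epithelial markers, CD3E and KRT8 in AMO1 cells and COL1A1 in both lines were above 1 CPM. In bulk RNA, fewer cells of a kind and less RNA per cell cannot be told apart.

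In DMSO the factors differed widely in level. SMG5 was the most abundant per length of its reference transcript, with mean levels of 46.8 and 46.95 CPM per kb in AMO1 cells at 6 h and 24 h and 43.4 and 52.0 in L363-CFZr cells. UPF3A followed or led, at 33.6 and 41.95 CPM per kb in AMO1 cells and 48.6 and 40.3 in L363-CFZr cells, and UPF1 was at 19.2 to 30.7 CPM per kb. The endonuclease SMG6 and the kinase subunit SMG9 were the scarcest, at 2.90 to 9.87 and 5.30 to 6.495 CPM per kb. UPF2, UPF3B, SMG1 and SMG8 ran from 6.38 CPM per kb for SMG1 in L363-CFZr cells at 6 h to 19.8 for SMG8 in the same group, where UPF1 was at 19.6. These comparisons between genes use 1 length per gene and ignore isoforms.

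In DMSO the share of factors called between the lines was near that of all genes. At 6 h SMG6 was at 31.7, 35.3 and 36.1 CPM in AMO1 DMSO and 18.1, 15 and 18.9 in L363-CFZr DMSO, a log2 difference of -0.99 ± 0.15 (SE, adjusted p = 7.1e-06). UPF1 was at 167, 166 and 157 against 105, 95.1 and 112 CPM, a log2 difference of -0.66 ± 0.08 (SE, adjusted p = 8.9e-07). Neither pair of groups overlapped. UPF2 (-0.46) and SMG1 (-0.36) were also lower in L363-CFZr cells and UPF3A was higher (0.51), so 5 of 9 factors were called, beside 60.2% of all genes tested. At 24 h SMG6 (-1.67 ± 0.20 with adjusted p = 0.00066), UPF2 (-0.61 ± 0.12 with adjusted p = 0.00661) and UPF3B (-0.59 ± 0.19 with adjusted p = 0.0384) were lower in L363-CFZr cells, 3 of 9 factors beside 39.9% of genes. Leaving out L363-CFZr DMSO replicate 2 raised this to 6 of 9 (65% of genes), with UPF1 at -0.93, SMG1 at -0.25 and SMG5 at -0.26 joining.

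The DMSO levels in AMO1 cells were themselves not constant in time. From 6 h to 24 h SMG6 rose by 0.78 ± 0.11 (SE, adjusted p = 4e-06) on the log2 scale, SMG1 by 0.56 ± 0.08 (SE, adjusted p = 4.6e-06) and UPF2 by 0.49 ± 0.10 (SE, adjusted p = 0.00032). UPF3B (0.44) and UPF3A (0.32) rose as well and SMG8 fell by 0.27, so 6 of 9 factors were called, beside 46.5% of genes. The 6 h pellets were frozen overnight and the 24 h pellets kept on ice, and time and storage cannot be told apart. In L363-CFZr cells 0 of 9 factors were called between the times by edgeR (14.8% of genes; 3 factors had an unadjusted p under 0.05, and DESeq2 called 1). Without DMSO replicate 2 at 24 h UPF1 (-0.34), UPF2 (0.33) and SMG1 (0.66) were called, beside 41.1% of genes. The DMSO libraries of this line changed set between the times, so time and set cannot be told apart in these values.

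The first question was what ProRS inhibition did to the factors in AMO1 cells after 6 h. NCP26 raised 6 of the 9 transcripts (UPF2, UPF3A, UPF3B, SMG1, SMG6 and SMG9) and lowered SMG8, and HFG raised 7 (the same 6 and SMG5). UPF1 was called with neither compound. Called genes made up 37.3% of all genes tested with NCP26 (18.1% higher and 19.2% lower) and 54.3% with HFG (27.7% higher and 26.6% lower). Without NCP26 replicate 1, which stood apart, 7 factors were again called, beside 40.6% of genes, with SMG5 (0.29) in and SMG8 (-0.27, adjusted p = 0.0946) out. The median log2 fold change of the 9 factors was 0.50 with NCP26 and 0.47 with HFG, where the medians over all genes were -0.01 and 0.01. Both compounds were compared with the same 3 DMSO libraries.

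Among the UPF proteins, UPF2, which holds the surveillance complex together, stood at 59.2, 60.5 and 55.6 CPM in DMSO, 105, 92.3 and 85.5 with NCP26 and 102, 76.1 and 88.6 with HFG. Every treated library lay above every DMSO library, and the log2 fold changes were 0.69 ± 0.11 (SE, adjusted p = 0.0005) and 0.63 ± 0.11 (SE, adjusted p = 0.00014). UPF3B (chrX:119834022-119852998, minus strand, GRCh38), the more active of the UPF3 paralogues, moved as far. It was at 27.8, 29.7 and 32.96 CPM in DMSO, 59.9, 54.02 and 44.6 with NCP26 and 65.6, 40.1 and 48.2 with HFG, again without overlap, for changes of 0.81 ± 0.14 (SE, adjusted p = 0.00088) and 0.78 ± 0.16 (SE, adjusted p = 0.0007). Its paralogue UPF3A (chr13:114281601-114305817, plus strand) was at 77.03, 85.05 and 76.9 CPM in DMSO, 106, 105 and 105 with NCP26 and 110.2, 84.4 and 97.4 with HFG. The NCP26 libraries were all higher than DMSO (0.41 ± 0.10 with adjusted p = 0.00549), whereas the lowest HFG library fell just under the highest DMSO library (0.32 ± 0.10 with adjusted p = 0.0148). UPF3A shares 24.0% of its 31-base words with other annotated genes, pseudogenes of it among them, so its counts are less certain. UPF1, the helicase, was at 167, 166 and 157 CPM in DMSO, 129.7, 156 and 161 with NCP26 and 139, 135 and 150.3 with HFG. All HFG libraries and 2 of the NCP26 libraries were below DMSO, but the changes of -0.12 ± 0.10 (SE, adjusted p = 0.372) and -0.17 ± 0.08 (SE, adjusted p = 0.076) did not pass.

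In the kinase complex SMG1 showed the strongest response. It was at 127, 122 and 138 CPM in DMSO, 187, 229.7 and 249 with NCP26 and 238, 268 and 259 with HFG. The groups did not overlap, and the log2 fold changes of 0.79 ± 0.12 (SE, adjusted p = 0.00027) and 1.02 ± 0.08 (SE, adjusted p = 4.9e-08) were the largest of the 9 factors with HFG and second to UPF3B with NCP26. SMG1 (chr16:18804860-18926408, minus strand) shares 20.5% of its 31-base words with other annotated genes, the pseudogene SMG1P2 among them. SMG9, a subunit that binds the kinase, was at 31.1, 40.2 and 35.4 CPM in DMSO, 52.1, 50.6 and 59.2 with NCP26 and 54.9, 58.2 and 52.5 with HFG, changes of 0.61 ± 0.13 (SE, adjusted p = 0.00325) and 0.67 ± 0.11 (SE, adjusted p = 0.00015) without overlap. SMG8 (chr17:59209400-59215239, plus strand), the other subunit, went the opposite way. It was at 60.5, 62.6 and 54.9 CPM in DMSO, 39.96, 43.8 and 52.4 with NCP26 and 50.3, 50.5 and 49.9 with HFG. All treated libraries lay below all DMSO libraries, and the fall passed with NCP26 (-0.37 ± 0.12 with adjusted p = 0.0315) but not with HFG (-0.21 ± 0.09 with adjusted p = 0.0782).

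Of the effectors, SMG6 (chr17:2059839-2303785, minus strand) was at 31.7, 35.3 and 36.1 CPM in DMSO, 44.3, 54.3 and 45.9 with NCP26 and 37.6, 47.3 and 51.4 with HFG. Its lowest treated library was just above its highest DMSO library, and it rose by 0.50 ± 0.13 (SE, adjusted p = 0.00959) and 0.47 ± 0.13 (SE, adjusted p = 0.00602). SMG6 shares 24.5% of its 31-base words with other annotated genes, most of all with HIC1. SMG5 (chr1:156249224-156282825, minus strand) was at 231, 210.0 and 199 CPM in DMSO, 201, 241 and 267 with NCP26 and 236, 267 and 283 with HFG. It rose with HFG (0.34 ± 0.08 with adjusted p = 0.00302), while 1 NCP26 library lay inside the DMSO range and the NCP26 change of 0.16 ± 0.12 (SE, adjusted p = 0.304) did not pass. In all, 7 factors did not overlap with DMSO after NCP26 and 8 after HFG, where 46.3% and 56.9% of all genes did not overlap. Of the 6 factors known to be feedback targets, 4 rose with NCP26 and 5 with HFG, and of the 3 not so known (UPF3A, SMG8, SMG9), 2 rose with each.

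**Figure D1:**
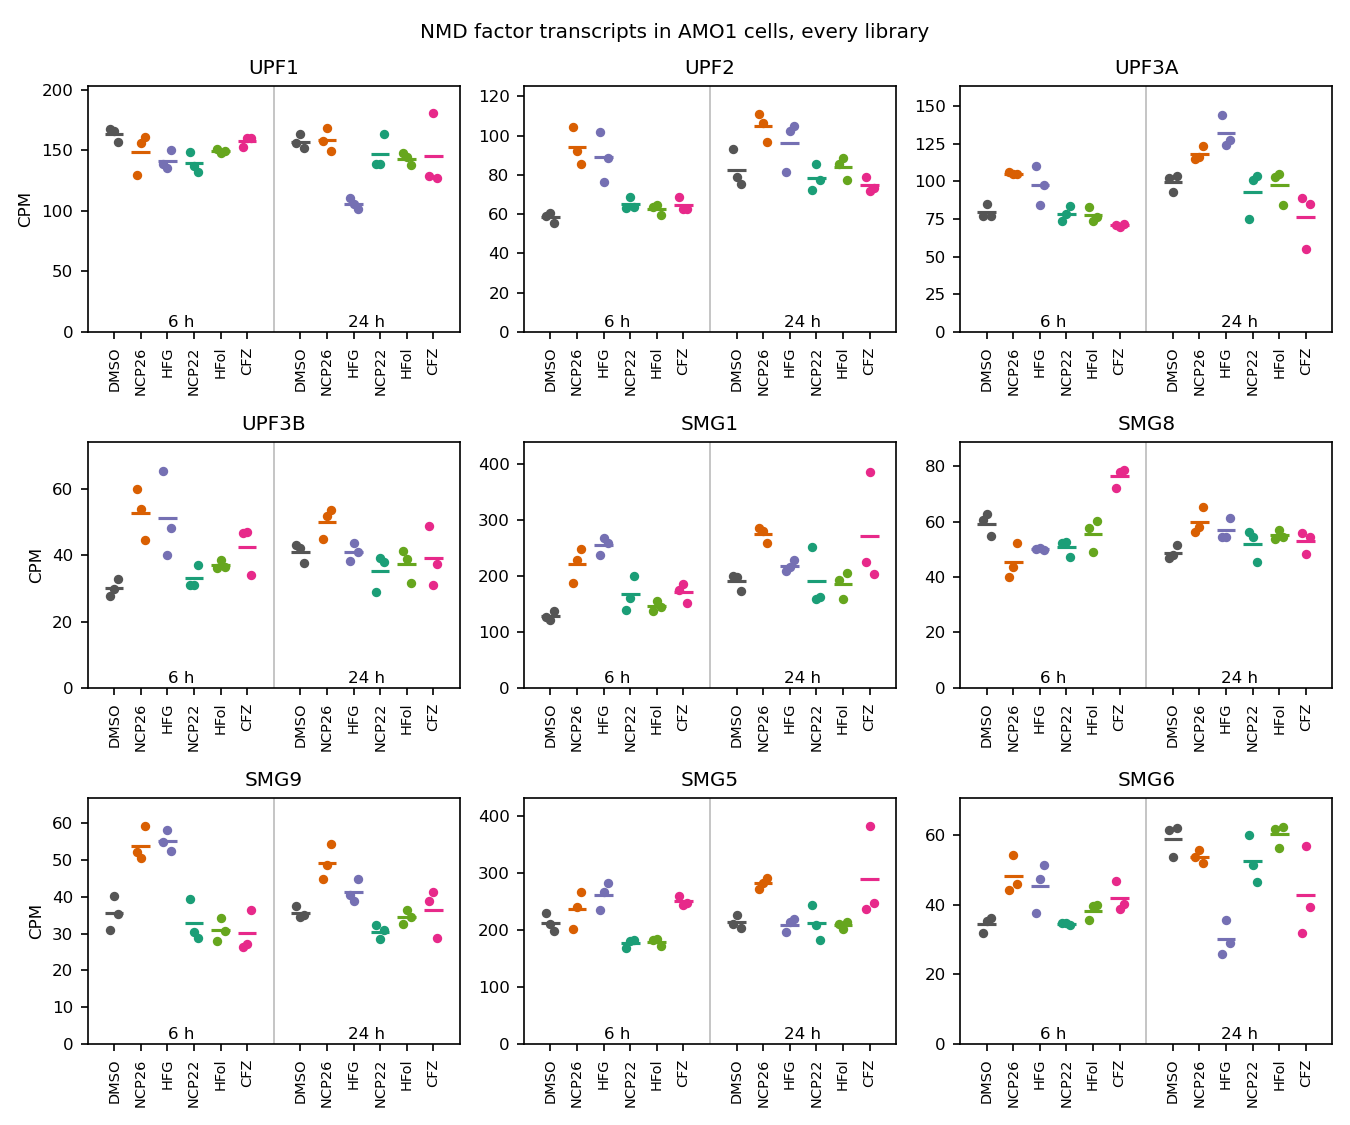
Level of each NMD factor in every AMO1 library, in CPM on axes that start at 0, by treatment at 6 h and 24 h, where HFol stands for halofuginol and horizontal marks are group means of 3 libraries. SMG1 and UPF2 sit above DMSO with NCP26 and HFG at 6 h, and UPF1 and SMG6 sit below DMSO with HFG at 24 h.

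The promoters of 4 factors are shown, some of the genes that rose with both inhibitors at 6 h (SMG1, UPF2 and SMG9) and the helicase gene UPF1, which did not. UPF3A, UPF3B and SMG6 also rose with both, and their sequences are not shown. Each is the 250 bases before the annotated start on the gene's own strand, from RefSeq on GRCh38.p14, and capitals mark a pair of GCGC separated by any 2 bases, the palindromic core of the NRF1 site. UPF1 is at chr19:18831709-18831958 on the plus strand, UPF2 at chr10:12043171-12043420, SMG1 at chr16:18926409-18926658 and SMG9 at chr19:43754963-43755212, all 3 on the minus strand.
UPF1: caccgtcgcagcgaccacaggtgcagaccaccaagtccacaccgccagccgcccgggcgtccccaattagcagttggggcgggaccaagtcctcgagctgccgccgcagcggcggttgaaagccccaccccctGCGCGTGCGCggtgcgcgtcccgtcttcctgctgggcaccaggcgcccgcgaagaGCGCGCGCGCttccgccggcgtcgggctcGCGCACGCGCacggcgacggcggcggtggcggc
UPF2: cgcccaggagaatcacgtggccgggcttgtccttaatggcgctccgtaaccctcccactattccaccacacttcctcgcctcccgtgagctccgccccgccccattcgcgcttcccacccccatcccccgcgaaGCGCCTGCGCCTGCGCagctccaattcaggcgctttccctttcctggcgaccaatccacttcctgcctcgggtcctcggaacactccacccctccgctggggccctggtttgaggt
SMG1: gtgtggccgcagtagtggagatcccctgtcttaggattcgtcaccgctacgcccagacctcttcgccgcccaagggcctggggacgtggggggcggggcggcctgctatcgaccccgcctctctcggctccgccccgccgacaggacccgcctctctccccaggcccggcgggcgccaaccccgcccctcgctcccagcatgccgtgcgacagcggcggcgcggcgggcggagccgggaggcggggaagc
SMG9: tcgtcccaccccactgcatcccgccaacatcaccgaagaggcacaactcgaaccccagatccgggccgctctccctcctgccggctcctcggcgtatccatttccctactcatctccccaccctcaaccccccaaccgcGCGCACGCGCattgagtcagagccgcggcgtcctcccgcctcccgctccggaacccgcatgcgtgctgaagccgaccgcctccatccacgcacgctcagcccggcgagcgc
This core occurred 3 times in the UPF1 window, 2 times with overlap in UPF2, once in SMG9 and not in SMG1. Of the windows not shown it occurred 2 times in SMG6 and not in UPF3A, UPF3B or SMG5. Genes that rose with both inhibitors were thus found with and without it. It was present in 7.16% of 35116 windows of this length and in 15.12% of the 11387 windows with at least 65% GC. All 4 windows were rich in GC, at 75.6% for UPF1, 66% for UPF2, 75.6% for SMG1 and 68.8% for SMG9, against a median of 58.0%. They held 41, 21, 31 and 29 CpG dinucleotides, where the median window held 11. The letters TGATGNAA of the C/EBP-ATF response element, searched on both strands, were in 3.14% of all windows and in none of the 8 factors with a window (SMG8 had none), and the same held for TGACGTCA (1.65%) and CCGGAAGT (3.42%). CACGTG was found in UPF2 (6.34% of windows) and CCAAT in UPF1, UPF2, UPF3B and SMG5 (32.01%).

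At 24 h the calls differed between the inhibitors. NCP26 raised 7 of the 9 factors in AMO1 cells (UPF2, UPF3A, UPF3B, SMG1, SMG5, SMG8 and SMG9), beside 60.7% of genes called (29.8% higher and 30.9% lower). Of these SMG5 was not called and SMG8 was lower with NCP26 at 6 h, and SMG6 was raised only at 6 h. HFG raised 3 (UPF2, UPF3A and SMG1) and lowered UPF1 and SMG6, beside 59.0% of genes (28.5% higher and 30.5% lower). These 5 of 9 called with HFG were near the share of all genes. SMG6 was at 61.3, 53.6 and 61.9 CPM in DMSO, 53.5, 55.8 and 51.9 with NCP26 and 25.9, 35.6 and 28.9 with HFG. The HFG libraries lay well under the rest, a change of -0.96 ± 0.12 (SE, adjusted p = 1.6e-06), and the NCP26 libraries were within or just under the DMSO range (-0.14 ± 0.09 with adjusted p = 0.196). UPF1 was at 156, 163 and 152 CPM in DMSO, 158, 169 and 149.7 with NCP26 and 110.4, 105 and 101 with HFG. Here too the HFG libraries stood alone at the bottom (-0.58 ± 0.07 with adjusted p = 8.4e-07), while the NCP26 libraries overlapped with DMSO (0.01 ± 0.06 with adjusted p = 0.887).

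SMG1 at 24 h was at 199.9, 198 and 173 CPM in DMSO, 287, 281 and 259 with NCP26 and 208, 216 and 228 with HFG. NCP26 raised it more (0.54 ± 0.06 with adjusted p = 3e-09) and HFG less (0.20 ± 0.07 with adjusted p = 0.0168), though neither overlapped with DMSO. SMG5 was at 211, 227 and 204 CPM in DMSO, 273, 283 and 292 with NCP26 and 197, 214 and 219 with HFG, so it rose only with NCP26 (0.40 ± 0.05 with adjusted p = 1.4e-07). UPF3A was highest with HFG, at 144, 124 and 128 CPM against 102, 92.8 and 103 in DMSO and 115, 116 and 124 with NCP26. It was not called in the direct comparison of NCP26 with HFG at this time. The other changes called with NCP26 were 0.47 for SMG9, 0.36 for UPF2, 0.30 for UPF3B, 0.28 for SMG8 and 0.25 for UPF3A, and those with HFG 0.40 for UPF3A and 0.25 for UPF2. The medians of the 9 factors were 0.30 with NCP26 and 0.20 with HFG, with medians of 0.01 and 0.00 over all genes. Groups did not overlap for 7 factors with NCP26 and 6 with HFG, beside 60.7% and 61% of genes.

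The treated and control libraries at 24 h came from different sets of sample numbers. A fit of all AMO1 24 h libraries with a term for the set, which can be had because the CFZ libraries span both sets, kept UPF1 (-0.83), SMG6 (-1.54) and UPF3A (0.76) with HFG. It left UPF3B (0.83) as the only factor called with NCP26. The shares of all genes called in that fit are not given here, so the loss of calls cannot be set beside them. SMG1 with HFG turned from 0.20 to -0.19 (adjusted p = 0.714) in that fit, UPF2 with HFG (0.37, adjusted p = 0.183) was no longer called, and SMG1 with NCP26 was at 0.15 (adjusted p = 0.794). In that fit the set term rests on CFZ replicate 1 against replicates 2 and 3, and replicate 2 is the library that stood apart.

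The change of response with time was tested as an interaction. In AMO1 cells the NCP26 and HFG libraries changed set between the times and DMSO did not, so time and set cannot be told apart. The same limit holds for HFG in L363-CFZr cells, where DMSO changed set and HFG did not. The HFG response of SMG6 was -1.39 (95% interval -1.77 to -1.02, adjusted p = 5.7e-06) lower at 24 h than at 6 h on the log2 scale, and those of SMG1 (-0.79, 95% interval -1.01 to -0.58, adjusted p = 6.8e-06) and UPF3B (-0.72, 95% interval -1.15 to -0.30, adjusted p = 0.00782) were lower too. UPF1 (-0.38), SMG9 (-0.40) and SMG5 (-0.33) went the same way and SMG8 the other (0.46), so 7 of 9 factors differed, beside 39.6% of genes. For NCP26 the differences called were SMG6 (-0.64), UPF3B (-0.52) and SMG8 (0.65), 3 of 9 beside 17.5% of genes. Without NCP26 replicate 1 at 6 h UPF3B was at -0.43 (adjusted p = 0.0796) and no longer called, and SMG1 (-0.37) was. These differences include the change in DMSO, where mean SMG6 went from 34.4 to 58.9 CPM and UPF3B from 30.2 to 41.1. Mean SMG6 went from 48.2 to 53.7 CPM with NCP26 and from 45.4 to 30.1 with HFG. UPF3B went from 52.8 to 50.2 CPM with NCP26 and from 51.3 to 41.1 with HFG. SMG8 went from 59.4 to 48.8 CPM in DMSO and from 45.4 to 59.9 with NCP26. In L363-CFZr cells the HFG response was lower at 24 h for SMG1 (-1.42) and UPF2 (-0.56) and higher for SMG8 (0.56), 3 of 9 beside 12.3% of genes. Without the outlying DMSO replicate 2 at 24 h these differences were -0.90 for SMG1, -0.56 for UPF2 and 0.52 for SMG8, and UPF1 (0.45), UPF3B (-0.59) and SMG9 (-0.52) were called as well, 6 of 9 beside 32.9% of genes. For NCP26 in that line edgeR called 0 of 9 (0.691% of all genes), DESeq2 called 0, and 3 factors had an unadjusted p under 0.05. Without that DMSO library UPF3B (-0.97) was called, beside 3.64% of genes.

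The analogues and CFZ were set against DMSO in the same way. NCP22 at 6 h called 2 of 9 factors, beside 13.5% of genes. SMG1 rose to 140.2, 161 and 199.9 CPM (0.39 ± 0.10 with adjusted p = 0.0141) and SMG5 fell to 169, 181 and 182 CPM (-0.25 ± 0.07 with adjusted p = 0.0291), neither overlapping with DMSO. At 24 h edgeR called 0 of 9 factors with NCP22 (0.0% of genes, 0 factors at an unadjusted p under 0.05), and DESeq2 also called 0. Halofuginol called 0 of 9 by edgeR and by DESeq2 at 6 h (3.62% of genes; 3 factors at an unadjusted p under 0.05) and 0 at 24 h (0.183% of genes; 1 at an unadjusted p under 0.05). Its largest value was UPF3B at 6 h (0.31 ± 0.12 with adjusted p = 0.15).

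CFZ, which blocks the proteasome rather than ProRS, raised 4 factors at 6 h, beside 26.9% of genes called (14.1% higher and 12.8% lower). UPF3B was at 46.6, 47.2 and 34.2 CPM (0.49 ± 0.14 with adjusted p = 0.0134), SMG1 at 176, 185 and 153 (0.40 ± 0.08 with adjusted p = 0.00109), SMG8 at 72.3, 78.01 and 78.8 (0.36 ± 0.09 with adjusted p = 0.0066) and SMG5 at 261, 243 and 247 (0.23 ± 0.07 with adjusted p = 0.022). Each lay above all DMSO libraries. SMG8 was thus higher with CFZ and lower with NCP26 at the same time point. At 24 h edgeR called 0 of 9 factors (27% of genes; 1 at an unadjusted p under 0.05; 0 by DESeq2). Replicate 2 was far from its partners there, with SMG1 at 225, 387 and 203 CPM and SMG5 at 238, 382 and 248 in the 3 replicates. Without it 4 factors were called, SMG6 (-0.72), UPF1 (-0.29), SMG1 (0.18) and SMG5 (0.19), beside 48.2% of genes. The response of SMG6 to CFZ was lower at 24 h than at 6 h by -0.74 (95% interval -1.26 to -0.22, adjusted p = 0.0446), the 1 factor called in that interaction (19.6% of genes). Without CFZ replicate 2 it was -1.01, again the 1 factor called, beside 30.6% of genes. That call was lost on leaving out any library except CFZ replicates 1 and 2 at 24 h. It was also lost with DESeq2 size factors and with a block for replicate number.

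L363-CFZr cells at 6 h showed part of the same picture, and UPF1 was also called lower. HFG raised SMG1, UPF2, UPF3A and UPF3B and lowered UPF1 and SMG8, 6 of 9 factors beside 54.5% of genes (26.9% higher and 27.5% lower). NCP26 raised UPF3A and UPF3B and lowered UPF1, 3 of 9 beside 18.8% of genes (9.81% higher and 8.99% lower). Without NCP26 replicate 2, which stood apart, NCP26 called 5 factors, beside 36.7% of genes, with SMG1 (0.67) and SMG8 (-0.35) added. None of the NCP26 calls remained without DMSO replicate 1 or 3. Fewer factors were called with the DESeq2 test and with a block for replicate number. UPF1, UPF3A and UPF3B were no longer called with NCP26 under the offset for GC content described below. The medians of the 9 factors were 0.12 and 0.07, with medians of 0.00 and 0.01 over all genes.

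UPF1 in these cells was at 105, 95.1 and 112 CPM in DMSO, 74.2, 63.2 and 82.2 with NCP26 and 74.8, 69.3 and 69.9 with HFG. All treated libraries were lower, by -0.49 ± 0.12 (SE, adjusted p = 0.0199) and -0.52 ± 0.08 (SE, adjusted p = 1.2e-05). UPF3B was at 32.2, 26.9 and 32.9 CPM in DMSO, 36.7, 46.9 and 43.2 with NCP26 and 46.6, 43.2 and 37.2 with HFG, higher in every treated library (0.48 ± 0.14 with adjusted p = 0.0349 and 0.48 ± 0.12 with adjusted p = 0.00154). UPF3A was at 115, 117 and 113 CPM in DMSO, 137, 157 and 137 with NCP26 and 141, 139 and 139 with HFG, also without overlap (0.34 ± 0.10 with adjusted p = 0.0349 and 0.31 ± 0.07 with adjusted p = 0.00046). UPF2, the bridge between them, was at 42.8, 41.2 and 45.1 CPM in DMSO, 43.8, 38.3 and 51.2 with NCP26 and 59.2, 51.5 and 55.4 with HFG. It rose with HFG (0.40 ± 0.10 with adjusted p = 0.00153) and overlapped with DMSO under NCP26 (0.07 ± 0.13 with adjusted p = 0.763).

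SMG1 was at 98.4, 120.0 and 88.9 CPM in DMSO, 146, 89.5 and 169.8 with NCP26 and 163, 173 and 173 with HFG. HFG raised it in all libraries (0.78 ± 0.09 with adjusted p = 8.1e-08), but the second NCP26 library lay within the DMSO range and the mean change of 0.43 ± 0.21 (SE, adjusted p = 0.177) did not pass. SMG8 fell with HFG, from 66.8, 62.7 and 61.4 CPM to 41.6, 46.5 and 48.8 (-0.44 ± 0.10 with adjusted p = 0.00045), with NCP26 between at 46.9, 57.6 and 50.5 (-0.28 ± 0.12 with adjusted p = 0.118). SMG9 was at 32.9, 26.2 and 30.7 CPM in DMSO, 33.3, 35.03 and 35.9 with NCP26 and 32.6, 31.4 and 31.7 with HFG and was not called. The effectors were not called either, with SMG6 at -0.11 and -0.31 and SMG5 at -0.05 and 0.02. A fit of the L363-CFZr 6 h libraries with a term for the set kept 5 of the 6 factors called with HFG, UPF1 (-0.59), UPF2 (0.77), UPF3A (0.73), UPF3B (0.93) and SMG8 (-0.63). SMG1 was no longer called in that fit. The set term there rests on NCP22 replicate 3 against replicates 1 and 2, since every other group lay in 1 set. The share of all genes called in that fit is not given here.

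**Figure D2:**
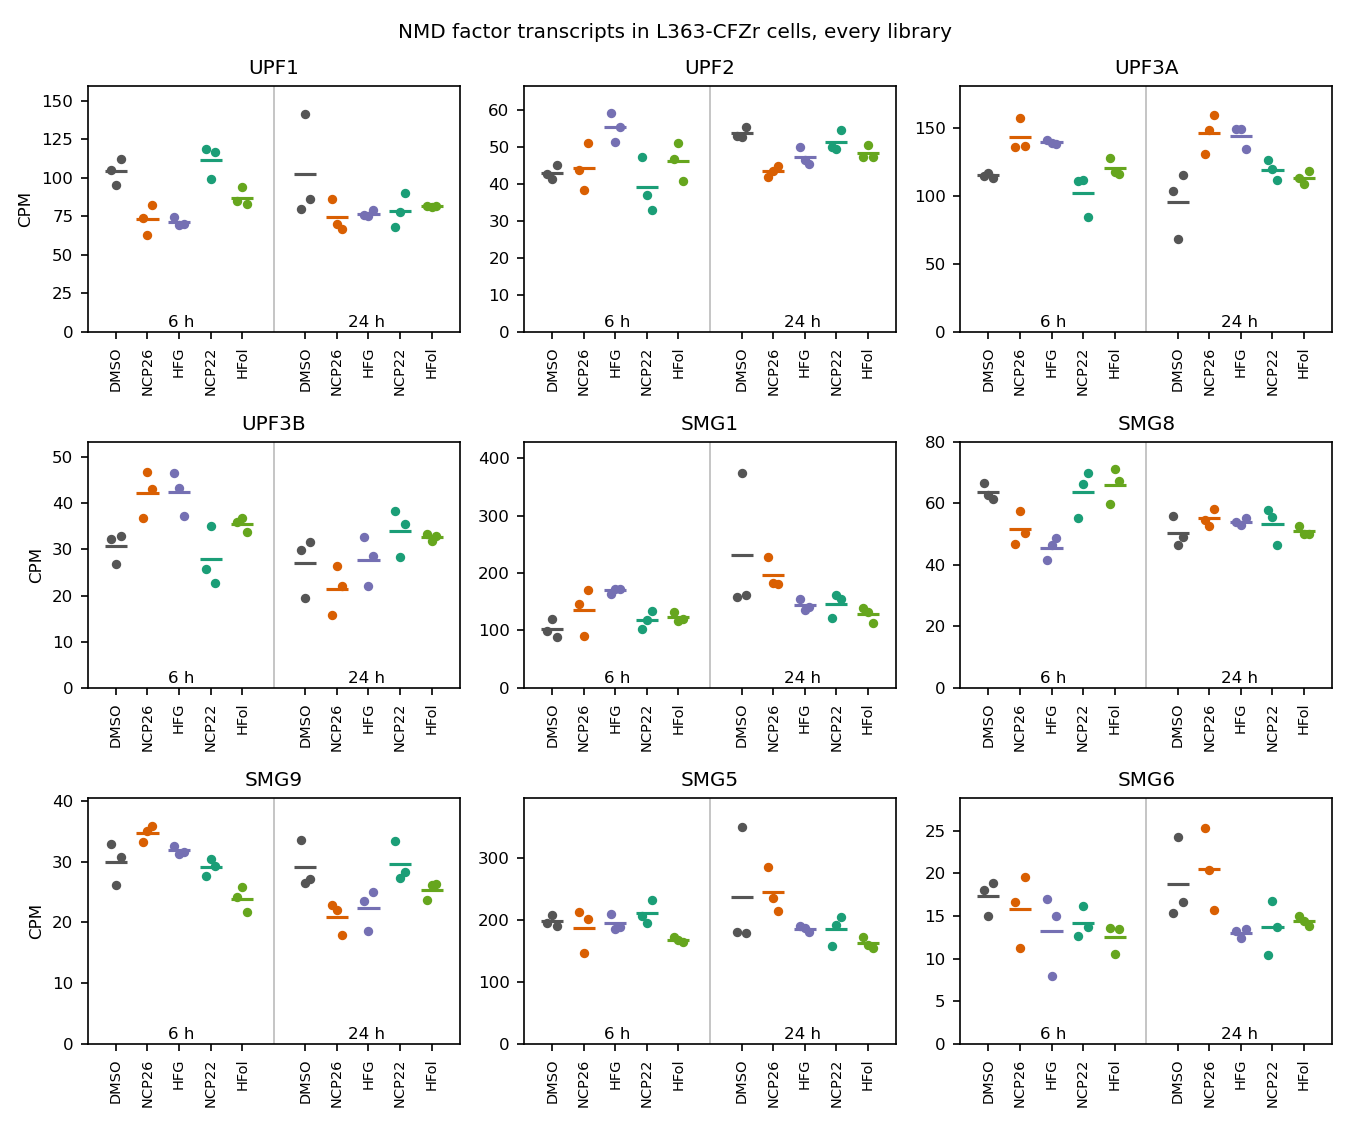
Level of each NMD factor in every L363-CFZr library, in CPM on axes that start at 0, by treatment at 6 h and 24 h, where HFol stands for halofuginol and horizontal marks are group means of 3 libraries. UPF1 is under DMSO with NCP26 and HFG at 6 h, and replicate 2 of DMSO at 24 h reaches 375 CPM for SMG1 and 351 CPM for SMG5, above every other library of the line.

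The difference between the lines was tested directly. With HFG at 6 h the change was lower in L363-CFZr than in AMO1 cells for UPF1 by -0.35 (95% interval -0.56 to -0.13, adjusted p = 0.0234), SMG6 by -0.77 (95% interval -1.29 to -0.25, adjusted p = 0.033), SMG9 by -0.54 (95% interval -0.87 to -0.21, adjusted p = 0.0191) and SMG5 by -0.32 (95% interval -0.55 to -0.09, adjusted p = 0.0449), 4 of 9 factors beside 20.7% of genes. With NCP26 at 6 h 0 of 9 were called by edgeR (2.71% of genes; 4 at an unadjusted p under 0.05), the lowest adjusted p being that of UPF2 (-0.64, 95% interval -1.01 to -0.28, adjusted p = 0.0573). DESeq2 also called 0 there. For UPF1 the NCP26 difference, -0.38 (95% interval -0.72 to -0.05, adjusted p = 0.241), was of the same size as the HFG one and was not called. The HFG and DMSO libraries came from different sets in L363-CFZr cells and from 1 set in AMO1 cells, so line and set cannot be told apart in the HFG differences. All 4 calls were lost without L363-CFZr DMSO replicate 1, with UPF1 at -0.34 (adjusted p = 0.0527). The share of all genes called without that library is not given here.

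At 24 h in L363-CFZr cells edgeR called 0 of 9 factors with NCP26 (7.09% of genes), HFG (1.17%), NCP22 (0.0%) or halofuginol (0.0%). At an unadjusted p under 0.05 there were 3, 1, 0 and 1 factors, and DESeq2 called 0 in each. The DMSO group was spread by replicate 2, as for SMG1 (158, 375 and 163 CPM) and UPF3A (103, 68.04 and 115 CPM). Without that library NCP26 called 5 factors, beside 28.6% of genes. UPF3A (0.43), SMG5 (0.46) and SMG1 (0.30) were higher, and SMG9 (-0.52) and UPF2 (-0.31) were lower. HFG called only UPF3A (0.40) in that setting, beside 19.5% of genes, and NCP22 and halofuginol called 0 of 9 and 0.0% of genes. The values themselves were 131, 149 and 160.0 CPM for UPF3A with NCP26 and 149, 149 and 135 with HFG, and 22.8, 22.1 and 17.9 CPM for SMG9 with NCP26 against 33.6, 26.5 and 27.2 in DMSO. With all libraries kept, the NCP26 response was lower in L363-CFZr than in AMO1 cells at 24 h for SMG9 (-0.96, 95% interval -1.37 to -0.54, adjusted p = 0.0138) and UPF2 (-0.67, 95% interval -0.98 to -0.35, adjusted p = 0.021), 2 of 9 beside 5.41% of genes, and the HFG response for SMG9 (-0.61, 95% interval -1.03 to -0.19, adjusted p = 0.0474), 1 of 9 beside 16.9%. Without DMSO replicate 2 the NCP26 differences called were SMG9 (-1.02), UPF2 (-0.70) and UPF3B (-0.81), beside 21.1% of genes. The HFG differences called were then SMG9 (-0.67), UPF2 (-0.45), SMG1 (-0.35), UPF1 (0.47) and SMG6 (0.67), beside 33.4% of genes. The AMO1 NCP26 and HFG libraries at 24 h came from another set than their DMSO, and all L363-CFZr 24 h libraries from 1 set. Line and set therefore cannot be told apart in these differences.

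Halofuginol at 6 h in L363-CFZr cells called 4 factors, beside 25.8% of genes, although NCP22 called 0 of 9 (0.0%, with 0 at an unadjusted p under 0.05 and 0 by DESeq2). SMG1 was higher (0.28 ± 0.09 with adjusted p = 0.0255) and UPF1 (-0.26 ± 0.08 with adjusted p = 0.0175), SMG6 (-0.49 ± 0.16 with adjusted p = 0.0295) and SMG5 (-0.23 ± 0.06 with adjusted p = 0.00956) were lower. The levels were 84.8, 94.04 and 82.9 CPM for UPF1 and 173, 168 and 165 for SMG5, all under DMSO, whereas SMG1 at 131, 116 and 121 CPM overlapped with it. The halofuginol and DMSO libraries came from different sets, and in the fit with a term for the set 0 of these 4 calls remained. The share of all genes called with halofuginol in that fit is not given here. In the same comparison the fold changes of all genes correlated with transcript GC content at -0.691, the strongest of the 18 treatment comparisons, and the part of either in the 4 calls was not tested.

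**Figure D3:**
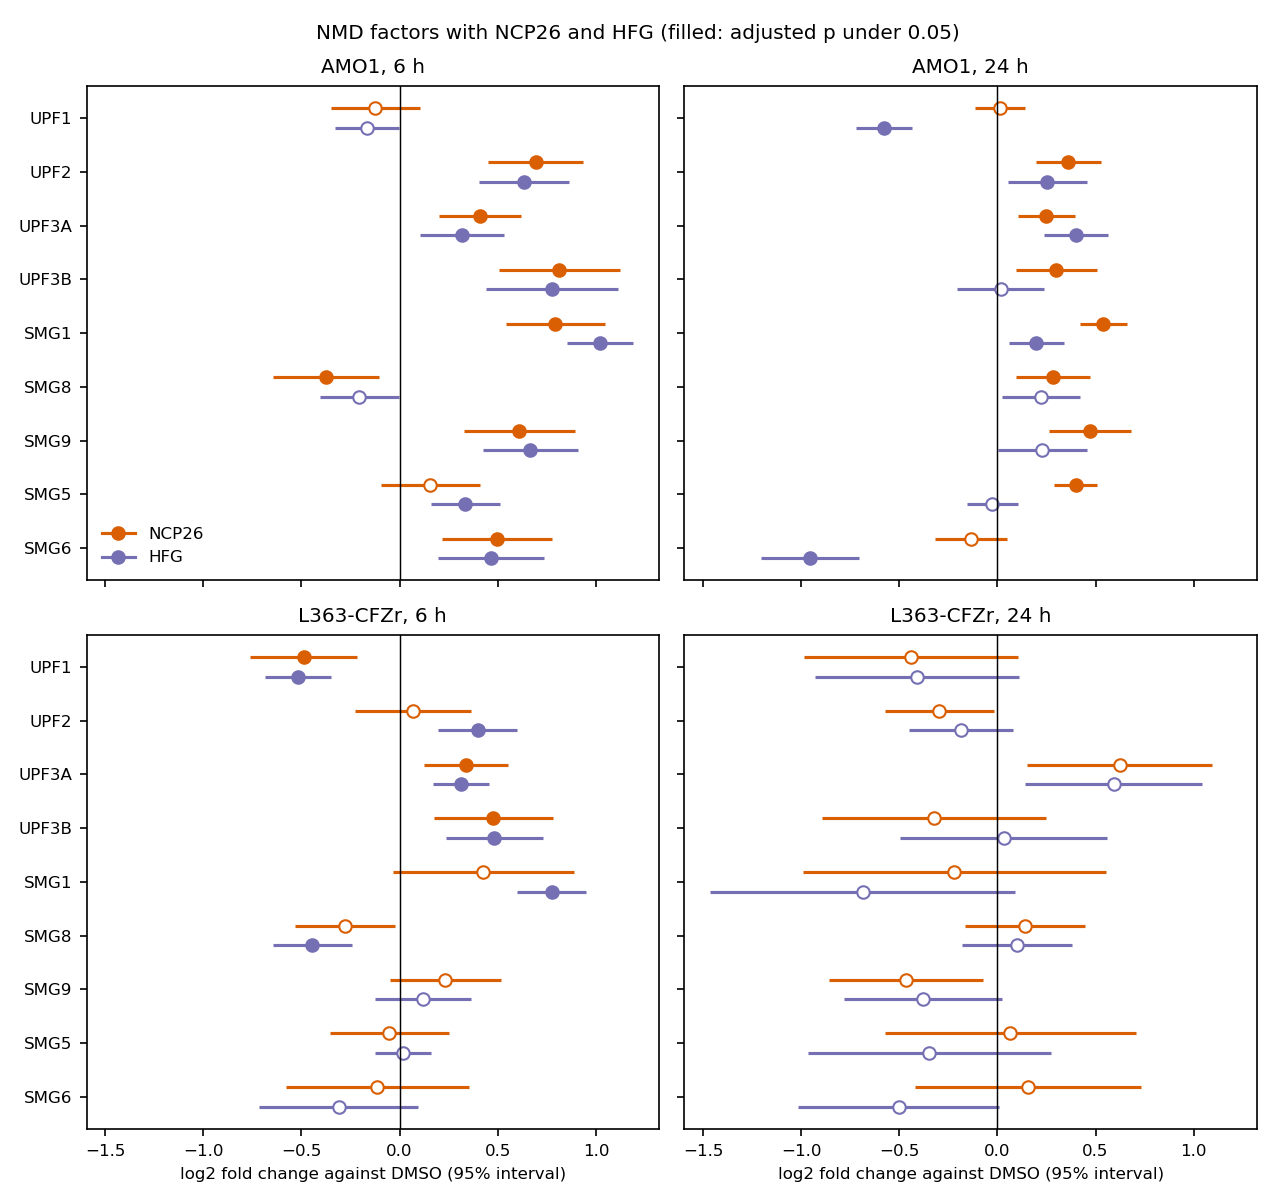
log2 fold change of each NMD factor against DMSO with NCP26 and HFG (points, with 95% intervals as lines) in both lines at 6 h and 24 h. Filled points have an adjusted p under 0.05. In AMO1 cells most points lie to the right of 0 at 6 h with both compounds, and at 24 h UPF1 (-0.58) and SMG6 (-0.96) lie to the left with HFG.

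The compounds were then compared with each other at 1 µM and equal times, in 12 pairs (NCP26 with NCP22, HFG with halofuginol and NCP26 with HFG, in each line and at each time). For each factor the p-values were also adjusted over the 12 pairs, and these are given as the p over pairs. HFG and halofuginol differ by a ketone in the former that is an alcohol in the latter. In AMO1 cells at 6 h HFG was higher than halofuginol for 7 of 9 factors, beside 51.7% of genes called and 25.6% called higher. SMG1 was higher by 0.83 (95% interval 0.69 to 0.97, adjusted p = 1.5e-08) with p over pairs of 5.2e-09, and SMG9 by 0.84 (95% interval 0.63 to 1.06, adjusted p = 2.9e-06) with p over pairs of 3.1e-06. SMG5, which HFG raised and halofuginol did not, differed by 0.57 (95% interval 0.43 to 0.71, adjusted p = 2e-06). UPF2 (0.52), UPF3B (0.46), UPF3A (0.34) and SMG6 (0.30) were also higher. UPF1 (-0.05, 95% interval -0.19 to 0.08, adjusted p = 0.517) and SMG8 (-0.12, 95% interval -0.32 to 0.08, adjusted p = 0.308) were not shown to differ.

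At 24 h in AMO1 cells 6 factors differed between these analogues, beside 56.6% of genes. SMG6 was at 61.8, 56.2 and 62.3 CPM with halofuginol and was lower with HFG by -0.97 (95% interval -1.22 to -0.71, adjusted p = 2.3e-06), and UPF1 was at 147, 144 and 138 CPM with halofuginol and lower by -0.42 (95% interval -0.58 to -0.26, adjusted p = 0.00014). UPF3A (0.46) and SMG1 (0.25) were higher with HFG under both adjustments, while SMG9 (0.28, p over pairs 0.0509) and UPF2 (0.24, p over pairs 0.0546) passed over all genes and not over the pairs. Both groups belonged to the same set of sample numbers. SMG5 (0.03, 95% interval -0.12 to 0.17, adjusted p = 0.749), SMG8 (0.07, 95% interval -0.14 to 0.27, adjusted p = 0.577) and UPF3B (0.17, 95% interval -0.09 to 0.44, adjusted p = 0.249) were not shown to differ.

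In L363-CFZr cells at 6 h, where HFG and halofuginol also shared a set, 8 of 9 factors differed, beside 47.3% of genes. SMG1 (0.49, 95% interval 0.38 to 0.60, adjusted p = 1.6e-08), SMG9 (0.43, 95% interval 0.22 to 0.65, adjusted p = 0.00114), UPF2 (0.28), UPF3B (0.28), SMG5 (0.25) and UPF3A (0.23) were higher with HFG. SMG8 (-0.50, 95% interval -0.68 to -0.32, adjusted p = 1.9e-05) and UPF1 (-0.26, 95% interval -0.40 to -0.12, adjusted p = 0.00244) were lower, and SMG6 was not shown to differ (0.19, 95% interval -0.20 to 0.57, adjusted p = 0.433). At 24 h UPF3A (0.34, 95% interval 0.19 to 0.49, adjusted p = 0.00244) and SMG5 (0.19, 95% interval 0.06 to 0.33, adjusted p = 0.0427) were higher with HFG, 2 of 9 beside 21.9% of genes called and 9.59% called higher. The other 7 were not shown to differ, from SMG1 (0.16, 95% interval -0.01 to 0.33, adjusted p = 0.163) to UPF3B (-0.23, 95% interval -0.53 to 0.06, adjusted p = 0.259).

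NCP26 and NCP22, the compound it was developed from, were compared in the same way. At 6 h in AMO1 cells NCP26 was higher for 7 of 9 factors, beside 24.7% of genes called and 12.6% called higher, led by SMG9 (0.74, 95% interval 0.45 to 1.03, adjusted p = 0.00201, p over pairs 0.00045) and UPF3B (0.70, 95% interval 0.40 to 0.99, adjusted p = 0.00297, p over pairs 0.00248). UPF2 (0.55), SMG6 (0.51), UPF3A (0.45), SMG5 (0.44) and SMG1 (0.44) followed. At 24 h, within 1 set, it was higher for 6, beside 52.0% of genes called and 26.3% called higher. These were SMG9 (0.72), SMG1 (0.55), UPF3B (0.50), SMG5 (0.42), UPF2 (0.42) and UPF3A (0.35), and UPF1 (0.13, 95% interval -0.05 to 0.31, adjusted p = 0.202), SMG6 (0.04, 95% interval -0.19 to 0.27, adjusted p = 0.774) and SMG8 (0.20, 95% interval -0.03 to 0.43, adjusted p = 0.131) were not shown to differ. In L363-CFZr cells at 6 h UPF3B (0.63) and UPF3A (0.50) were higher and UPF1 (-0.60, 95% interval -0.89 to -0.32, adjusted p = 0.00833) lower with NCP26, 3 of 9 beside 20.4% of genes. Without NCP26 replicate 2 SMG1 (0.43) and SMG8 (-0.38) were called too, 5 of 9 beside 33.6%. No factor was called without NCP22 replicate 3, the only library of this pair in the third set. The share of all genes called without it is not given here. At 24 h, where neither group contains the outlying DMSO library, 6 factors differed, beside 34.1% of genes. SMG6 (0.58), SMG1 (0.43), SMG5 (0.41) and UPF3A (0.30) were higher with NCP26, and UPF3B (-0.65, 95% interval -1.01 to -0.28, adjusted p = 0.0103) and SMG9 (-0.49, 95% interval -0.80 to -0.18, adjusted p = 0.0172) were lower.

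The inhibitors of the different chemotypes, NCP26 and HFG, were not shown to differ for any factor at 6 h. In AMO1 cells edgeR called 0 of 9 (0.26% of genes, with 0 factors under an unadjusted p of 0.05) and DESeq2 also called 0, with the furthest difference for SMG1 (-0.21, 95% interval -0.45 to 0.04, adjusted p = 0.455). In L363-CFZr cells it called 0 of 9 (0.0% of genes, 1 at an unadjusted p under 0.05; 0 by DESeq2), where UPF2 was lower with NCP26 by -0.33 (95% interval -0.61 to -0.05, adjusted p = 0.42) with p over pairs of 0.0546. In that pair the NCP26 libraries lay in the second set and the HFG libraries in the third, so compound and set cannot be told apart. Its fold changes over all genes correlated with transcript GC content at 0.492. At 24 h NCP26 was higher than HFG for 5 factors in AMO1 cells, beside 44.9% of genes called and 22.6% called higher. SMG6 differed by 0.81 (95% interval 0.56 to 1.06, adjusted p = 2.1e-05), UPF1 by 0.58 (95% interval 0.43 to 0.73, adjusted p = 2.7e-06), SMG5 by 0.41 (95% interval 0.29 to 0.53, adjusted p = 1e-05), SMG1 by 0.33 (95% interval 0.20 to 0.45, adjusted p = 0.00017) and UPF3B by 0.27 (95% interval 0.04 to 0.50, adjusted p = 0.0494), all in libraries of 1 set. UPF2 (0.09, 95% interval -0.09 to 0.27, adjusted p = 0.425) and SMG8 (0.05, 95% interval -0.15 to 0.26, adjusted p = 0.691) were not shown to differ. UPF3A and SMG9 were not called either. In L363-CFZr cells at 24 h SMG6 (0.66, 95% interval 0.26 to 1.06, adjusted p = 0.0342), SMG1 (0.46, 95% interval 0.26 to 0.66, adjusted p = 0.00606) and SMG5 (0.41, 95% interval 0.21 to 0.61, adjusted p = 0.0106) were likewise higher with NCP26, 3 of 9 beside 12.9% of genes called and 5.52% called higher, but UPF1 was not shown to differ there (-0.04, 95% interval -0.25 to 0.18, adjusted p = 0.851).

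**Figure D4:**
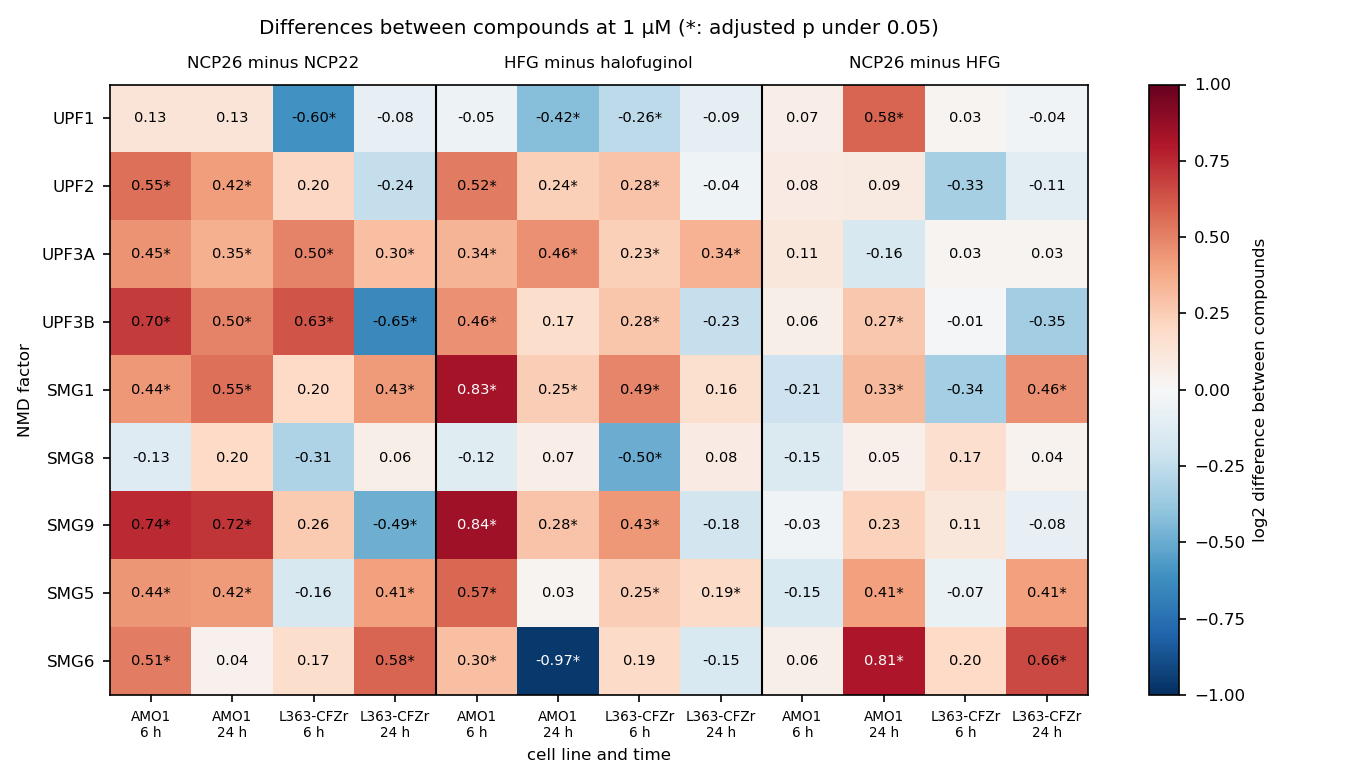
log2 difference between compounds for each NMD factor (vertical axis) in the 12 pairs (horizontal axis, by cell line and time), with colour for the size and a star for an adjusted p under 0.05. The NCP26 against HFG pairs at 6 h hold no star, and in AMO1 cells at 24 h that pair differs by 0.81 for SMG6 and 0.58 for UPF1.

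The correlation of the 6 h fold changes with transcript GC content differed between comparisons, being weakest for NCP22 in L363-CFZr cells (-0.012) and CFZ in AMO1 cells (-0.122). Across genes, which are not independent replicates, the coefficients were -0.371 for NCP26 and -0.322 for HFG in AMO1 cells and -0.351 and -0.546 in L363-CFZr cells. They reached -0.496 for NCP22 and -0.455 for halofuginol in AMO1 cells. The fits were therefore repeated with an offset for GC content. In AMO1 cells with NCP26 the 7 factors called before were called again, SMG1 (0.60), UPF2 (0.52), UPF3A (0.37), UPF3B (0.56), SMG6 (0.67), SMG9 (0.85) and SMG8 (-0.49), and SMG5 (0.36) was added. With HFG all factors but UPF1 were called, SMG8 (-0.35) being the addition. In L363-CFZr cells HFG kept UPF1 (-0.19), UPF3A (0.24), SMG1 (0.46) and SMG8 (-0.62), lost UPF2 and UPF3B and added SMG5 (0.29) and SMG9 (0.45). With NCP26 in those cells UPF1, UPF3A and UPF3B were no longer called and SMG9 (0.43) and SMG8 (-0.39) were. The 2 calls with NCP22 in AMO1 cells and the 4 with halofuginol in L363-CFZr cells were all lost. The shares of all genes called with the offset are not given here, so these counts cannot be set beside them.

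**Figure D5:**
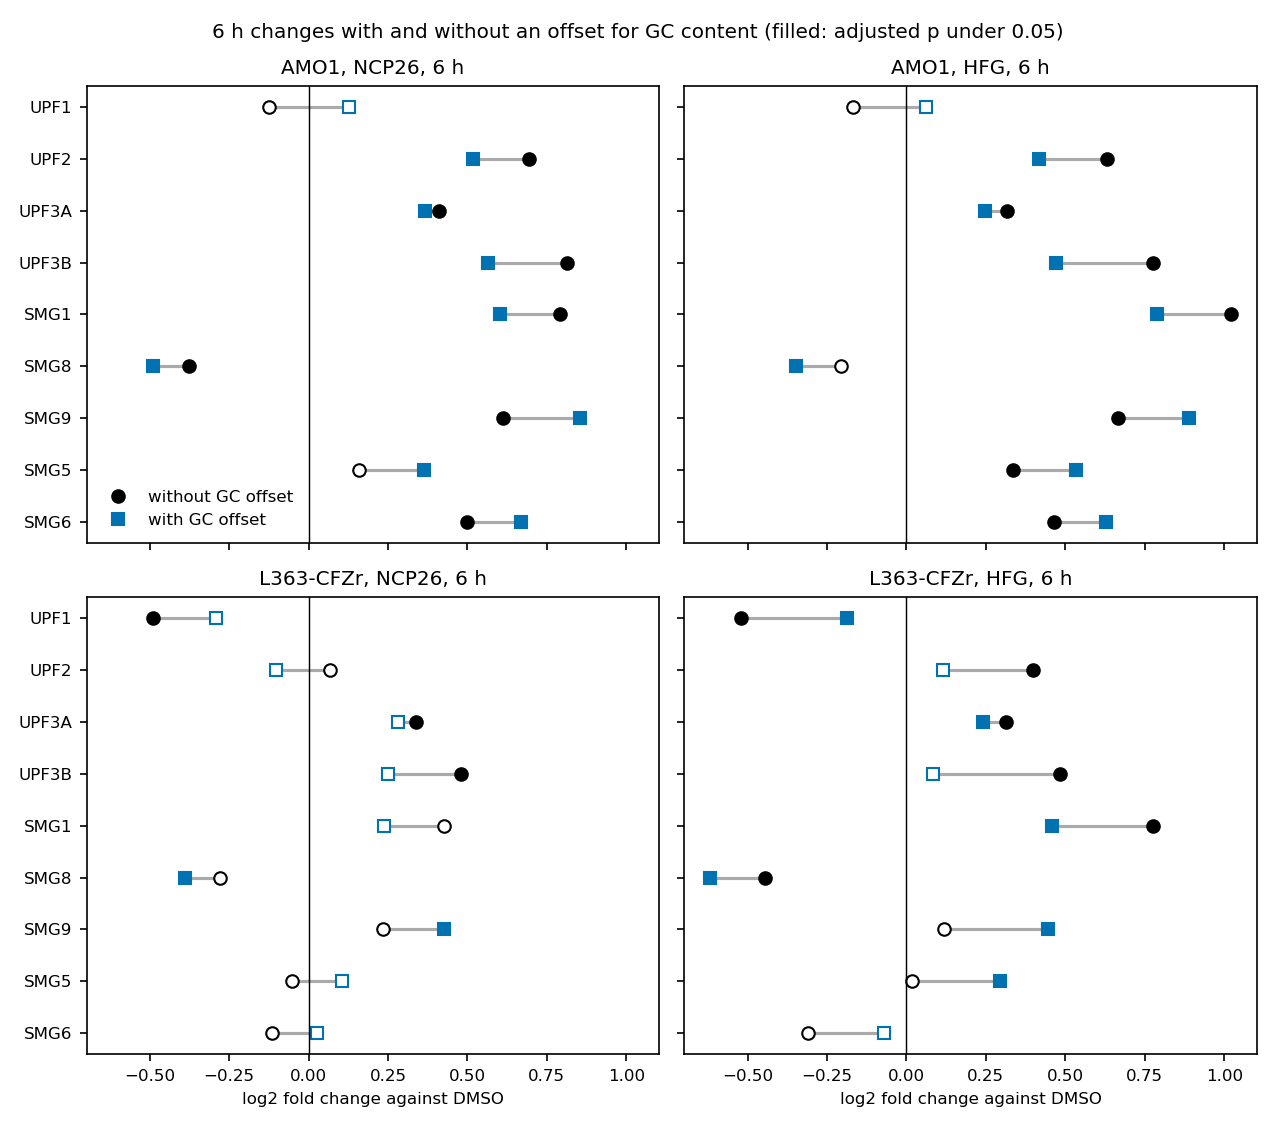
log2 fold change of each NMD factor at 6 h without (circles) and with (squares) an offset for the GC content of the transcripts, in both lines with NCP26 and HFG. Filled symbols have an adjusted p under 0.05. In AMO1 cells SMG1 moves from 0.79 to 0.60 with NCP26 and SMG9 from 0.61 to 0.85, both staying called.

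The other genes of the NMD machinery were read from lists. Of 36 further genes listed, 33 were tested, and NCP26 at 6 h in AMO1 cells raised 4 and lowered 12, HFG 7 and 13, in fits where 18.1% of all genes were higher and 19.2% lower with NCP26 and 27.7% and 26.6% with HFG. In the exon junction complex and its partners 4 of 8 fell with NCP26 and the other 4 were not called (median -0.23, beside -0.01 over all genes), led by ACIN1 (-0.44 ± 0.12) and SAP18 (-0.36 ± 0.13), splicing-linked partners of the complex. With HFG 1 rose and 3 fell (median -0.07, beside 0.01), led by SAP18 (-0.44 ± 0.09) and RNPS1 (-0.42 ± 0.09). Among termination factors ETF1, the release factor that reads the stop codon, rose (0.34 ± 0.10 with NCP26 and 0.47 ± 0.08 with HFG) and PABPC4, a poly(A)-binding protein, fell (-0.68 ± 0.09 and -0.76 ± 0.06). Partners of UPF1 and SMG1 fell in 4 of 9 cases with each compound, led by the ATPase RUVBL1, which supports SMG1 (-0.65 ± 0.11 and -0.75 ± 0.10), and then by the helicase DHX9 with NCP26 (-0.60 ± 0.11) and RUVBL2 with HFG (-0.69 ± 0.08). Of the cap-binding and decay genes 3 of 12 rose and 3 fell with NCP26 and 5 rose and 3 fell with HFG, the decapping scaffold EDC4 (-0.72 ± 0.13) and the decapping factor DCP1B (-0.62 ± 0.19) changing most with NCP26 and the 5′ exonuclease XRN1 (1.18 ± 0.09) and DCP1B (-0.78 ± 0.17) with HFG. XRN1 rose by 0.62 ± 0.11 with NCP26.

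At 24 h in AMO1 cells 6 of the 33 rose and 16 fell with NCP26 (29.8% and 30.9% of all genes), and 9 rose and 10 fell with HFG (28.5% and 30.5%). NBAS, a gene needed for decay of many NMD targets, changed by -1.03 ± 0.08 with HFG and -0.60 ± 0.06 with NCP26. The helicase MOV10 rose with both compounds, by 1.44 ± 0.11 with 1 of them and 0.68 ± 0.12 with the other. In L363-CFZr cells at 6 h HFG raised 8 and lowered 14 (26.9% and 27.5% of all genes), NCP26 raised 2 and lowered 3 (9.81% and 8.99%), and XRN1 was at 0.79 ± 0.13 with HFG and 0.30 ± 0.28, not called, with NCP26. CFZ raised 9 and lowered 2 of the 33 at 6 h (14.1% and 12.8% of all genes), DHX34, another helicase that acts with UPF1, among those that rose (0.45 ± 0.14).

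Transcripts known as natural NMD substrates were read beside the factors. Of 7 that are also induced by the integrated stress response, 6 rose with NCP26 at 6 h in AMO1 cells (median 0.91) and 5 with HFG (median 0.63), led by ATF3 (2.92 ± 0.15 and 3.66 ± 0.11) and SLC7A11, the cystine transporter (2.30 ± 0.17 and 2.57 ± 0.15). ATF4, the factor that drives this response, was not called (-0.22 ± 0.10 and -0.01 ± 0.06). Since transcription by that response also raises them, decay and synthesis cannot be told apart for these genes. Of 9 further substrates, 4 were in the table and tested. GADD45A among them can also be raised by that response. GADD45B rose in AMO1 cells (2.56 ± 0.11 with NCP26 and 2.90 ± 0.09 with HFG) and was not called in L363-CFZr cells (0.04 ± 0.15 and -0.28 ± 0.12). GADD45A showed the reverse, at 0.16 ± 0.14 and 0.04 ± 0.13, not called, in AMO1 cells and rising by 1.45 ± 0.25 and 1.37 ± 0.21 in L363-CFZr cells. NAT9 rose with HFG in AMO1 cells (0.34 ± 0.12) and TBL2 was not called (-0.10 ± 0.11 and -0.06 ± 0.09). The heat shock genes HSPA1B (6.29 ± 0.07) and DNAJB1 (5.33 ± 0.06), which report proteasome block, rose with CFZ at 6 h and fell with NCP26 (-0.85 ± 0.11 and -0.84 ± 0.10). Of the 9 plasma cell markers 6 fell and 1 rose with NCP26 at 6 h in AMO1 cells, and the part of this in the factors' values was not tested.

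The range of each factor across the whole series was read from its group means, and no such range was computed for other genes. The ratio of the highest to the lowest group mean within a line ran from 1.41 for UPF2 in L363-CFZr cells to 2.26 for SMG1 in the same line, where the highest group is DMSO at 24 h with its outlying replicate. In AMO1 cells SMG1 had the widest range, from 129 ± 7.82 CPM in DMSO at 6 h to 276 ± 14.6 with NCP26 at 24 h, 2.14 times as high. SMG6 ran from 30.1 ± 4.97 CPM with HFG at 24 h to 60.1 ± 3.37 with halofuginol at 24 h. UPF1 had its lowest mean with HFG in both lines, at 106 ± 4.63 CPM at 24 h in AMO1 cells and 71.4 ± 3.002 at 6 h in L363-CFZr cells, and UPF3B had its highest at 6 h with NCP26 in AMO1 cells (52.8 ± 7.76) and with HFG in L363-CFZr cells (42.4 ± 4.77).

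The pattern over the 22 group means, after the mean of each line was taken out, was compared between genes by Pearson correlation as a description. Among the factors SMG1 and UPF2 were the most alike (0.723), then SMG9 and UPF3B (0.717) and SMG5 and SMG1 (0.686), and UPF3A and UPF1 were the least alike (-0.638). Of the 36 pairs of factors 24 were positive. Without the 2 libraries that stood furthest apart these values were 0.772, 0.720, 0.598 and -0.587, and SMG1 and UPF3A went from 0.346 to 0.659, in an analysis chosen after seeing the data. The comparison took in 10161 genes, the factors among them. Outside the factors the closest patterns were those of MKLN1 (0.934) and AFF4 (0.934) for SMG1, of ARID4A (0.930) and ACVR2A (0.897) for UPF2, and of FNTA (0.930) and FAM220A (0.897) for UPF3A. UPF1 was closest to PRPF8 (0.873) and SMARCD1 (0.863), UPF3B to PSPC1 (0.831) and MPZL3 (0.827), and SMG5 to SGSH (0.837) and KDM2A (0.832). SMG6 was closest to DLGAP4 (0.823) and CNOT3 (0.814), SMG8 to FASTKD5 (0.821) and AAR2 (0.799), and SMG9 to IL4R (0.834) and NFKB1 (0.815). The groups share libraries' base composition and the sets of sample numbers, and no p is given.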

How the data were processed

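The authors selected polyadenylated RNA, made directional libraries, sequenced both ends on an Illumina NextSeq and assigned reads with kallisto using 31-mers on a GRCh38 transcriptome by the study's methods, whereas the submitters' processing notes name hg19. What the authors deposited are unnormalised integer counts of 66 libraries by gene. For the kallisto version, the annotation and the step to whole counts, details were not given in the sources used here. Genes were named from GENCODE v44 on GRCh38, which holds 19299 of 20167 identifiers (95.7%).

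Counts were fitted per comparison with edgeR 4.0.16 in R 4.3.3 (filterByExpr, minimum count 10 and minimum total 15, TMM scaling, quasi-likelihood F test, Benjamini-Hochberg adjustment over all genes tested, threshold 0.05), with only the groups compared in each fit and interaction terms for differences between lines and times. Standard errors were obtained as the log2 change over the root of the F statistic. CPM were scaled by TMM on 11787 genes. The scripts were tested on simulated data. Alternatives were DESeq2 1.42.0 (test, size factors), no filter, all groups of a line in 1 fit, a replicate block, an offset by lowess (span 0.3) on GC content, a term for sample-number sets and leaving out each library. Promoters, figures and tables used Python 3.11.15, numpy 2.4.6, pandas 2.3.3 and matplotlib 3.10.9. The members, gene lists and rules were chosen with earlier results of these data known. All 9 factors are named for NCP26 and HFG against DMSO at 6 h, and in other comparisons some factors that were not called are left unnamed. Of the other NMD lists the 2 called genes with the largest absolute change are named per list for NCP26 and HFG at 6 h in AMO1 cells, besides the substrates. Elsewhere XRN1, NBAS, MOV10 and DHX34 were picked after their values were seen. For likeness the 2 closest genes of at least 5 mean CPM are named. Libraries of the same number within groups were not paired, since deviations of same-numbered libraries correlated at -0.3225 to 0.2672, and 0 libraries were identical.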

Additional observations from a re-analysis of the deposited data

Results flagged for a closer look

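The responses below differed between lines or times by an interaction term in edgeR fits of 12 libraries, adjusted over all genes tested, and are log2 differences. With NCP26 the response was lower in L363-CFZr than in AMO1 cells at 24 h for SMG9 by -0.96 (adjusted p = 0.0138) and UPF2 by -0.67 (adjusted p = 0.021). With HFG it was lower in L363-CFZr cells at 6 h for UPF1 (-0.35), SMG6 (-0.77), SMG9 (-0.54) and SMG5 (-0.32), with adjusted p from 0.0191 to 0.0449, and at 24 h for SMG9 (-0.61, adjusted p = 0.0474). All HFG calls at 6 h were lost without L363-CFZr DMSO replicate 1. The HFG call of SMG9 at 24 h was lost with the DESeq2 test, with DESeq2 size factors and without the filter on low counts.

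Between 6 h and 24 h in AMO1 cells the NCP26 response was lower at the later time for SMG6 (-0.64) and UPF3B (-0.52) and higher for SMG8 (0.65), with adjusted p from 0.00589 to 0.0427. The HFG response was lower for SMG6 (-1.39), SMG1 (-0.79), UPF3B (-0.72), SMG9 (-0.40), UPF1 (-0.38) and SMG5 (-0.33) and higher for SMG8 (0.46), with adjusted p from 5.7e-06 to 0.0395. In AMO1 DMSO itself SMG6, SMG1 and UPF3B rose and SMG8 fell between these times. The differences in response include that change. The CFZ response of SMG6 was lower by -0.74 (adjusted p = 0.0446), and by -1.01 without the outlying CFZ replicate 2. That call was lost on leaving out any library except CFZ replicates 1 and 2 at 24 h. In L363-CFZr cells the HFG response was lower at 24 h for SMG1 (-1.42) and UPF2 (-0.56) and higher for SMG8 (0.56), with adjusted p from 0.0201 to 0.0295, and without the outlying DMSO replicate 2 these were -0.90, -0.56 and 0.52. Sample-number set cannot be told apart from line or time in these differences. For CFZ this holds in part, since its 24 h libraries lay in 2 sets.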

How the results depend on the processing

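Counts of factors called, out of 9, are given as the value reported and then under each alternative where it moved by over 1.5 times or crossed 0. The shares of all genes called under these alternatives, or on leaving out a library, are given only where stated above. Elsewhere a change of count cannot be set beside the change over all genes. With the DESeq2 test they went from 2 to 1 for NCP22 at 6 h in AMO1 cells, from 3 to 1 for NCP26 and from 4 to 1 for halofuginol at 6 h in L363-CFZr cells, from 2 to 1 for HFG against halofuginol at 24 h in L363-CFZr cells, from 1 to 0 for the difference of HFG effect between lines at 24 h and from 0 to 1 for L363-CFZr DMSO over time. DESeq2 size factors took 1 to 0 for that line difference and for the CFZ difference over time. Without the filter on low counts halofuginol at 6 h in AMO1 cells went from 0 to 1, HFG against halofuginol at 24 h in L363-CFZr cells from 2 to 1, the line difference of HFG at 24 h from 1 to 0, the L363-CFZr HFG difference over time from 3 to 1 and L363-CFZr DMSO over time from 0 to 1. The GC offset took NCP22 at 6 h in AMO1 cells from 2 to 0 and halofuginol at 6 h in L363-CFZr cells from 4 to 0.

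With all groups of a line in 1 fit, AMO1 counts went from 2 to 0 for NCP22 at 6 h, 4 to 2 for CFZ at 6 h, 0 to 4 for CFZ at 24 h, 6 to 3 for HFG against halofuginol at 24 h and 5 to 3 for NCP26 against HFG at 24 h. L363-CFZr counts went from 0 to 3 for NCP26 and for HFG at 24 h, 4 to 0 for halofuginol at 6 h, 6 to 2 for NCP26 against NCP22 at 24 h, 8 to 2 and 2 to 0 for HFG against halofuginol at 6 h and 24 h, and 3 to 0 for NCP26 against HFG at 24 h. The term for the sample-number set took NCP26 at 24 h in AMO1 cells from 7 to 1, HFG from 5 to 3, CFZ from 0 to 1 and halofuginol at 6 h in L363-CFZr cells from 4 to 0, and turned SMG1 with HFG at 24 h in AMO1 cells from 0.20 to -0.19 (adjusted p = 0.714).

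The replicate numbers only name samples. With the replicate block the counts went from 3 to 1 for NCP26 at 6 h and 6 to 3 for NCP26 against NCP22 at 24 h in L363-CFZr cells, 1 to 0 for the CFZ difference over time and 0 to 1 for L363-CFZr DMSO over time, and the other counts stayed within 1.5 times.

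Leaving out 1 library at a time gave these ranges. In AMO1 cells the count was 3 to 6 for HFG at 24 h (fewest without HFG replicate 3), 0 to 3 for NCP22 at 6 h (fewest without DMSO replicate 2 or NCP22 replicate 3), 0 to 2 for halofuginol at 6 h (most without DMSO replicate 3), 2 to 4 for CFZ at 6 h (fewest without CFZ replicate 1), 0 to 4 for CFZ at 24 h (most without CFZ replicate 2) and 3 to 5 for HFG against halofuginol at 24 h (fewest without HFG replicate 3). In L363-CFZr cells it was 0 to 5 for NCP26 at 6 h (fewest without DMSO replicate 1 or 3, most without NCP26 replicate 2), 0 to 5 for NCP26 and 0 to 1 for HFG at 24 h (most without DMSO replicate 2), 1 to 5 for halofuginol at 6 h (fewest without DMSO replicate 3), 0 to 5 for NCP26 against NCP22 at 6 h (fewest without NCP22 replicate 3, most without NCP26 replicate 2), 3 to 5 for that pair at 24 h (fewest without NCP22 replicate 1), 1 to 2 for HFG against halofuginol at 24 h (fewest without any HFG replicate or halofuginol replicate 2 or 3) and 1 to 3 for NCP26 against HFG at 24 h (fewest without HFG replicate 2 or 3). DMSO over time gave 0 to 3 and the DMSO comparison of the lines at 24 h 2 to 6, both most without L363-CFZr DMSO replicate 2 at 24 h. The differences of effect gave 0 to 1 for NCP26 between lines at 6 h (1 without L363-CFZr NCP26 replicate 3), 1 to 3 for NCP26 between lines at 24 h, 0 to 4 for HFG between lines at 6 h (0 without L363-CFZr DMSO replicate 1), 0 to 5 for HFG between lines at 24 h, 0 to 1 for CFZ over time, 0 to 1 for NCP26 over time in L363-CFZr cells and 0 to 6 for HFG over time in L363-CFZr cells, the last 2 and the HFG line difference at 24 h reaching their highest without L363-CFZr DMSO replicate 2 at 24 h. The CFZ difference over time (SMG6) was lost on leaving out any library except CFZ replicates 1 and 2 at 24 h.

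The counts with NCP26 and HFG at 6 h and with NCP26 at 24 h in AMO1 cells stayed within 1.5 times on leaving out any library. Of the single changes called, 721 of the leave-one-out values kept their direction and their side of the threshold and 203 kept only their direction. Of the 18 genes named as closest to a factor by Pearson correlation, 9 were also among the closest by Spearman correlation and 13 without the 2 libraries that stood furthest apart, an alternative chosen after seeing the data. The cause of these changes was not tested. SMG6, UPF3B and SMG9, with as few as 24, 50 and 54 counts in a library, had the least depth behind their values.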

Other observations

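Both libraries that stood furthest apart held the highest rank for UPF1, SMG1 and SMG5 and the lowest for UPF3A. They stood apart over all genes, and the share of all genes with such ranks is not given here. These ranks therefore cannot be read as particular to the factors. Replicate 2 of DMSO at 24 h in L363-CFZr cells was the highest of its 30 libraries for UPF1 (141 CPM), SMG1 (375 CPM) and SMG5 (351 CPM), the lowest for UPF3A (68.0 CPM) and rank 29 for UPF3B (19.4 CPM) and SMG8 (46.4 CPM). Replicate 2 of CFZ at 24 h in AMO1 cells was the highest of its 36 libraries for UPF1 (181 CPM), SMG1 (387 CPM) and SMG5 (382 CPM), the lowest for UPF3A (55.1 CPM) and rank 33 for UPF3B (30.96 CPM). Averaged over genes, the squared deviation between such a library and a partner was up to 34.1 and 28.2 times that of Poisson noise. The cause was not tested.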
